A study of Mus musculus with 4 samples.

Results

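Neutrophils were followed across their maturation in the proximal tissue of the mouse lower incisor, where 244 of 12843 filtered barcodes (1.90%) met a rule based on neutrophil genes. The members were chosen by their measured UMI counts (unique molecular identifiers, 1 for each captured transcript): at least 1% of a barcode's UMIs had to come from S100a8 and S100a9, which encode the calprotectin subunits, and at least 2 of Retnlg, Ly6g, Camp, Ngp, Ltf, Csf3r and Mmp8 had to be detected. A barcode first had to have at least 500 detected genes, at most 10% of its UMIs from mitochondrial genes and at most 3% from hemoglobin genes, which left 12843 of 20502 deposited barcodes. Single cells were sequenced with 10x Genomics 3′ chemistry from 2 WT and 2 Din-KO libraries, all from mice 15 days old, and the libraries held 50423655, 32198098, 54348039 and 33076212 UMIs in the order WT replicate 1, WT replicate 2, Din-KO replicate 1 and Din-KO replicate 2. Din-KO mice carry a conventional knockout allele of Din that was made from a gene-trap allele by a germline Cre, so Din is targeted in every cell of the animal and not in neutrophils alone. No treatment other than the genotype is stated for either group. How many mice went into each library was not given, so p-values measure the spread between 4 libraries, which may be partly technical.

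Neutrophils are made in the bone marrow from dividing myeloid precursors and are released as short-lived cells that no longer divide. Their antimicrobial proteins are made in an order and stored as they are made: proteins of azurophil granules such as myeloperoxidase first, in promyelocytes, then those of specific granules such as cathelicidin, neutrophilic granule protein and lactoferrin, in myelocytes, and later those of gelatinase granules. Mature cells carry receptors for chemoattractants and for the growth factor G-CSF, and C/EBP-epsilon and PU.1 are among the transcription factors needed for the program.

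The genes that order these cells are shown first by the sequence upstream of their starts. The promoters of the 3 specific granule genes used here, Camp, Ngp and Ltf, of the 2 late genes Retnlg (a resistin-like secreted protein) and Csf3r (the G-CSF receptor), and of 4 azurophil genes, Mpo, Elane, Prtn3 and Ctsg, were taken from RefSeq (GRCm38.p6), and 9 of 9 genes matched. The 250 bases before each RefSeq start, which for some genes lies inside the longer annotated gene given below, were searched on both strands for the C/EBP core TTGCNNAA and for the PU.1 core GAGGAA. No match of one core overlapped a match of the other. TTGCNNAA was found in 3 of the 9 genes, against 9.56% of 32851 promoters searched over the same length, and GAGGAA in 6 of 9, against 23.3%. Each line gives 30 bases on the strand of the gene, 5′ to 3′, with the match in capitals (a match on the other strand is shown as its complement, TTCCTC for GAGGAA).
Ngp, chr9:110419659-110419688, plus strand, C/EBP core: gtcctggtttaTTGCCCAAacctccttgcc
Ngp, chr9:110419778-110419807, plus strand, C/EBP core: tttatgtcaccggcagttcTTGGGCAAggc
Ltf, chr9:111019206-111019235, plus strand, C/EBP core: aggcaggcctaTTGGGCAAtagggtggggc
Ltf, chr9:111019123-111019152, plus strand, PU.1 core: tggagtccctgtTTCCTCcttctgggctcc
Retnlg, chr16:48872358-48872387, plus strand, C/EBP core: agctTTCTGCAAggcattccaggcacctcc
Csf3r, chr4:126024561-126024590, plus strand, PU.1 core: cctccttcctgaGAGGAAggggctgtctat
Mpo, chr11:87793534-87793563, plus strand, PU.1 core: taaGAGGAAggggctgtggagagagagagg
Mpo, chr11:87793548-87793577, plus strand, PU.1 core: tgtggagagagaGAGGAAgttgcctttgtc
Elane, chr10:79886215-79886244, plus strand, PU.1 core: tcgtgtcccaggGAGGAAgtagggctgtgg
Prtn3, chr10:79879560-79879589, plus strand, PU.1 core: ccaaactggaagGAGGAAgtgggacccaca
Ctsg, chr14:56102773-56102802, minus strand, PU.1 core: ctcccagaaggaGAGGAAgaaaaggaagta
The 4 azurophil genes, which encode myeloperoxidase and 3 serine proteases, all held GAGGAA and none held TTGCNNAA. Of the specific granule genes, Ngp held the C/EBP core at 2 places, Ltf held 1 match of each core and Camp held neither. A match describes these letters only. In the annotation of GRCm38, Camp (9:109847379-109849617, minus strand), Ngp (9:110419747-110423012, plus strand) and Ltf (9:111019271-111042767, plus strand) lie on chromosome 9, Retnlg on chromosome 16 (48872621-48874496), Csf3r on chromosome 4 (126024550-126044440), and S100a8 and S100a9 near each other on chromosome 3 (90668978-90670035 and 90692632-90695721).

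Neutrophils made up 1.10% of filtered barcodes in WT replicate 1 (50 of 4535, 95% Wilson interval 0.837 to 1.45), 5.73% in WT replicate 2 (104 of 1816, 4.75 to 6.89), 0.659% for the first Din-KO library (33 of 5010, 0.469 to 0.924) and 3.85% for the second (57 of 1482, 2.98 to 4.95). The share was high in the second library of each genotype and low in the first, and the genotypes overlapped. The mean was 2.25% in Din-KO and 3.41% in WT, a difference of -1.16 percentage points that an exact two-sided permutation test over libraries did not separate (p = 0.667, with 0.333 the smallest p that 2 libraries against 2 allow). Between libraries of the same number Din-KO was lower by 0.444 points (first libraries) and 1.88 points (second), and the libraries are named WT-2 and KO-2 (first) and CD1-WT and CD2-KO (second), names whose meaning is not given. The difference turned to 1.15 points when WT replicate 2 was left out and to 0.431 when Din-KO replicate 1 was. All intervals here cover counting error only. The plot of shares shows both this quantity and the stage shares described below.

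**Figure D1:**
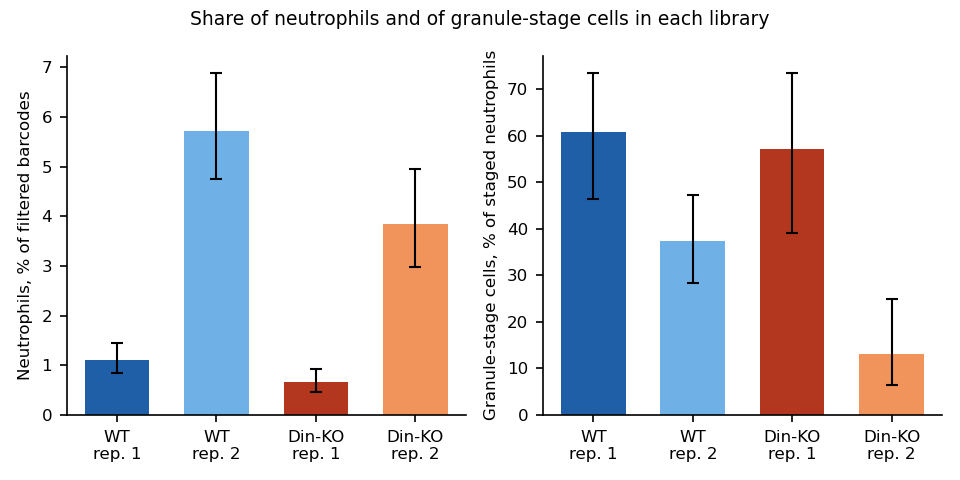
Bars give, for each library, neutrophils as a percentage of filtered barcodes (left) and granule-stage cells as a percentage of neutrophils that could be staged (right), with 95% Wilson intervals. Neutrophil shares of 5.73% and 3.85% in the second libraries stand above 1.10% and 0.659% in the first, and granule-stage shares run from 13.2% to 60.9%.

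The 9 neutrophil markers are the genes of the rule, so their levels describe the selection and do not check it. All 9 were detected in every library, and together they took 35.7% of neutrophil UMIs in WT replicate 1, 26.9% in WT replicate 2 and, for Din-KO, 37.6% and 21.5%. The median share of S100a8 and S100a9 was 27.2%, 23.6%, 34.0% and 25.2%, and single cells ran from 1.02% to 53.2%. Other classes were picked by their own markers from filtered barcodes not selected as neutrophils. Their low levels of the rule genes are therefore partly made by the selection, and free RNA of the droplets would be counted in them too. S100a8 stood at 89.3 CPM (UMIs of a gene, scaled to 1000000 UMIs of the class) in monocyte or macrophage barcodes, 15.3 in B-lineage barcodes and 9.75 in collagen barcodes. Camp stood at 1.88, 4.48 and 2.48 CPM and Retnlg at 1.48, 3.08 and 0.979 CPM in those classes.

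Near the thresholds the members were less uniform. The 5 barcodes just inside the limit on S100a8 and S100a9 held 1.02% to 1.52% and the 5 just outside held 0.702% to 0.979%, and 2 of the 5 inside, both from WT replicate 2, also held 84 and 33 UMIs of the collagen gene Col1a1. Of the 244, 34 met the rule with exactly 2 of the 7 other genes and 35 held all 7, while 17 barcodes with 1 such gene fell outside. A further 7 barcodes met the rule in all but the limit of 500 genes. No neutrophil barcode occurred in 2 libraries, although 4 to 12 deposited barcodes were shared by each pair.

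Markers of other cell types were absent for some classes and present for others in the neutrophil sums. Mast cell and basophil markers (4 genes) were at 0 in every library, which allows up to 6.02, 3.81, 14.0 and 7.70 CPM in the order of libraries above, and the erythroid genes Alas2 and Car1 were at 0 while Hbb-bs led the 5 erythroid genes, which summed to 351, 631, 205 and 862 CPM. The 5 monocyte markers summed to 417, 415, 855 and 926 CPM, led by Ly6c2, and the 6 macrophage markers to 30.1, 409, 2624 and 43.6 CPM, with 96.3% of those UMIs in Din-KO replicate 1 held by a single barcode of 40882 UMIs. The 5 mesenchyme markers, led by Col1a1 or Col3a1, summed to 560, 3103, 458 and 1971 CPM, the 5 epithelium markers, led by the enamel matrix gene Amelx, to 34.1, 848, 135 and 644 CPM, and the 4 glia markers to 30.1, 36.8, 14.0 and 960 CPM. In Din-KO replicate 2 a single barcode of 38525 UMIs held 94.4% of the glia UMIs. The second library of each genotype thus carried more mesenchyme and epithelium RNA, and 1 barcode in each Din-KO library carried nearly all of a foreign program. Removing every barcode that held at least 2 markers of 1 other class left 21 of 50, 10 of 104, 19 of 33 and 11 of 57 neutrophils.

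The immature granule genes and the late genes divided the cells. A granule fraction was computed as the UMIs of Camp, Ngp and Ltf over those of Camp, Ngp, Ltf, Retnlg and Csf3r, in the 226 cells with at least 5 such UMIs. Cells above 0.5 were called granule-stage (88 cells) and the others Retnlg-stage (138 cells), and 18 cells had too few UMIs to be placed. Most cells were at the ends: 98 were under 0.05 and 58 above 0.95, and 36 lay from 0.2 to 0.8. The stages are ranges of 1 fraction and not cell types, and in the plot of the 2 percentages in each cell they form a continuous bend.

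**Figure D2:**
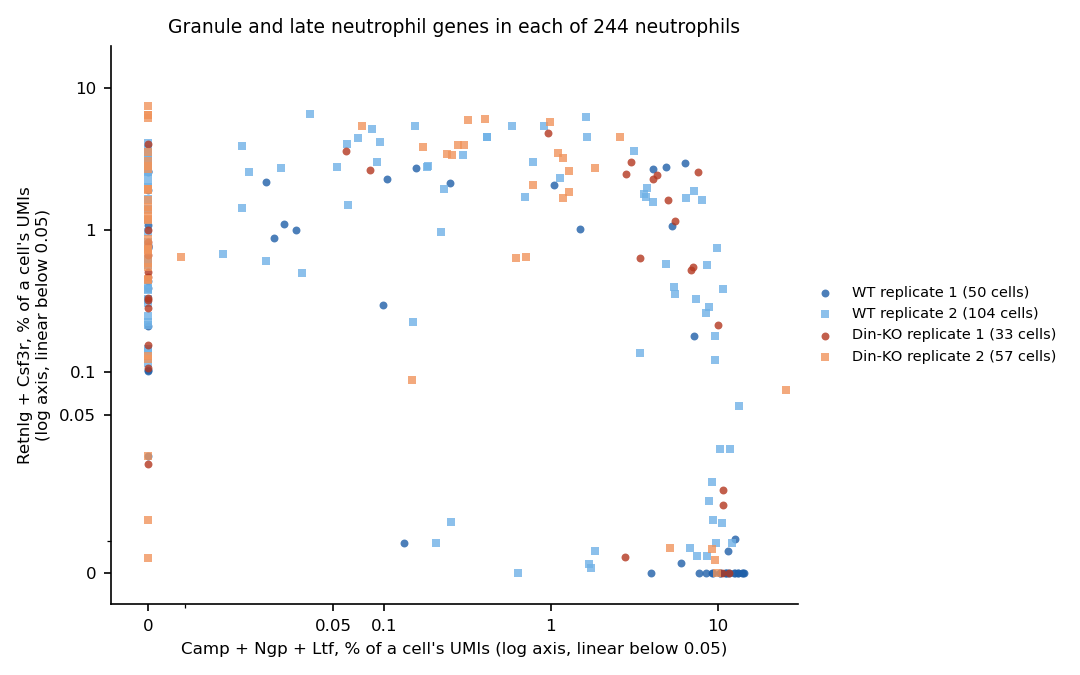
Each point is 1 of 244 neutrophils, with the percentage of its UMIs from Camp, Ngp and Ltf on the horizontal axis and from Retnlg and Csf3r on the vertical axis (both logarithmic above 0.05% and linear below), coloured by library. Cells lie along 2 arms that meet at the upper right, and every library has cells on both arms.

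The 5 genes behind the fraction, given as values without a test, changed places along it. With all libraries pooled and cells ordered from above 0.95, through 0.5 to 0.95 and 0.05 to 0.5, to under 0.05, Camp, which encodes cathelicidin, stood at 41599, 13278, 3587 and 38.1 CPM. Ngp, a cystatin-like granule protein, stood at 32342, 19098, 5397 and 136 CPM. Ltf, which encodes lactoferrin, stood at 5148, 5234, 564 and 0 CPM. In these pooled values Camp and Ngp dropped at each step, while Ltf was as high in the second range as in the first. By library, Camp dropped at each step in 3 of 4 and Ngp in 2 of 4. Ltf was higher in the second range than in the first in 2 of 4. Because the ranges are cuts of a fraction of these 5 genes, the granule genes had to fall relative to the late genes. Counts of libraries here and in the next paragraph describe single genes and do not check that fall.

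The late genes, whose rise relative to the granule genes was likewise built into the ranges, did not follow 1 course. Retnlg stood at 224, 10027, 32748 and 18242 CPM over the same ranges, highest in the third, and Csf3r stood at 45.2, 80.4, 387 and 1084 CPM, highest in the last. Among the other genes of the rule, Mmp8 (neutrophil collagenase) was at 297, 2113, 2632 and 1272 CPM and Ly6g, a surface antigen of mouse granulocytes, at 563, 1397, 951 and 341 CPM, so both were highest in a middle range of the pooled values. Within libraries Retnlg was highest in the third range and Csf3r in the last in 4 of 4, Ly6g was highest in a middle range in 4 of 4 and Mmp8 in 3 of 4, with Mmp8 of WT replicate 1 highest in the last. S100a8, at 132071, 125011, 135973 and 89782 CPM, and S100a9, at 122012, 120486, 140573 and 100714 CPM, stayed abundant throughout. In Din-KO replicate 2 the range from 0.5 to 0.95 held 2 cells only. The range from 0.05 to 0.5, where Retnlg was highest, held 2 cells in Din-KO replicate 1 and 4 in WT replicate 1.

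By library, granule-stage cells held Camp at 50693, 27442, 26824 and 28344 CPM and Retnlg-stage cells at 450, 1427, 1386 and 1419 CPM, in the order WT replicate 1, WT replicate 2, Din-KO replicate 1, Din-KO replicate 2, which is used from here on. Retnlg was at 1642, 2021, 6439 and 701 CPM in granule-stage cells and at 13688, 24047, 20841 and 26257 CPM in Retnlg-stage cells. The split therefore separated both genes in each of the 4 libraries, as it was made to do. Din-KO replicate 1 had the least sharp split, with the highest Retnlg among granule-stage cells and with Ngp at 5904 CPM in Retnlg-stage cells, against 630 to 2509 CPM in the other libraries.

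Granule-stage cells were 60.9% of staged neutrophils in WT replicate 1 (28 of 46, 95% Wilson interval 46.5 to 73.6), 37.4% in WT replicate 2 (37 of 99, 28.5 to 47.2), 57.1% for the first Din-KO library (16 of 28, 39.1 to 73.5) and 13.2% for the second (7 of 53, 6.55 to 24.8). Din-KO replicate 2 was low, and the other Din-KO library lay between the WT libraries. The mean was 35.2% ± 31.1 (SD, n = 2) in Din-KO and 49.1% ± 16.6 (SD, n = 2) in WT, a difference of -13.9 percentage points that was not separated from 0 (exact permutation test over libraries, two-sided, p = 0.667) and that was 8.02 without Din-KO replicate 2. Between libraries of the same number it was -3.73 and -24.2 points.

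Granule-stage cells held more RNA. Their median UMI count was 14347.5, 10467, 7695.5 and 25227, against 2533, 3315.5, 2106 and 3055 in Retnlg-stage cells, so the order was the same in 4 of 4 libraries and the ranges of these medians did not overlap. Single cells of the stages did overlap, with granule-stage cells down to 1255 UMIs. The geometric mean of the library ratios was 4.82-fold, 3.43-fold when the 9 genes of the rule were left out, and 2.43-fold for detected genes (exact sign-flip permutation test over 4 libraries, two-sided, p = 0.125 for each, the smallest that 4 libraries allow). Depth thus moved with stage, and its part in the gene differences below was not tested beyond thinning each cell to 1000 UMIs, which left 362 genes testable and 131 called.

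The stages differed in many genes besides those that defined them. UMIs were summed over each stage of each library and compared by the quasi-likelihood test of edgeR, with library as a term and p-values adjusted by Benjamini-Hochberg over 2968 genes (a gene is called here at an adjusted p under 0.05). Granule-stage sums were higher in 324 genes (10.9% of those tested) and Retnlg-stage sums in 338 (11.4%). Without WT replicate 1 the calls numbered 160, without WT replicate 2 206, and with at least 1000 genes a cell 128. The 662 calls include the 5 genes of the split (Camp, Ngp and Ltf higher, Retnlg and Csf3r lower). The split used 5 genes of the same cells, so genes that vary with them in those cells had to differ, and the p-values describe how steady the difference was over libraries. A gene that passed the filter on low counts through 1 stage only had to differ, so the counts and medians of lists below are descriptions. The 9 genes of the rule are left out of every list count below, and the plot of the stage genes shows 15 of the others.

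**Figure D3:**
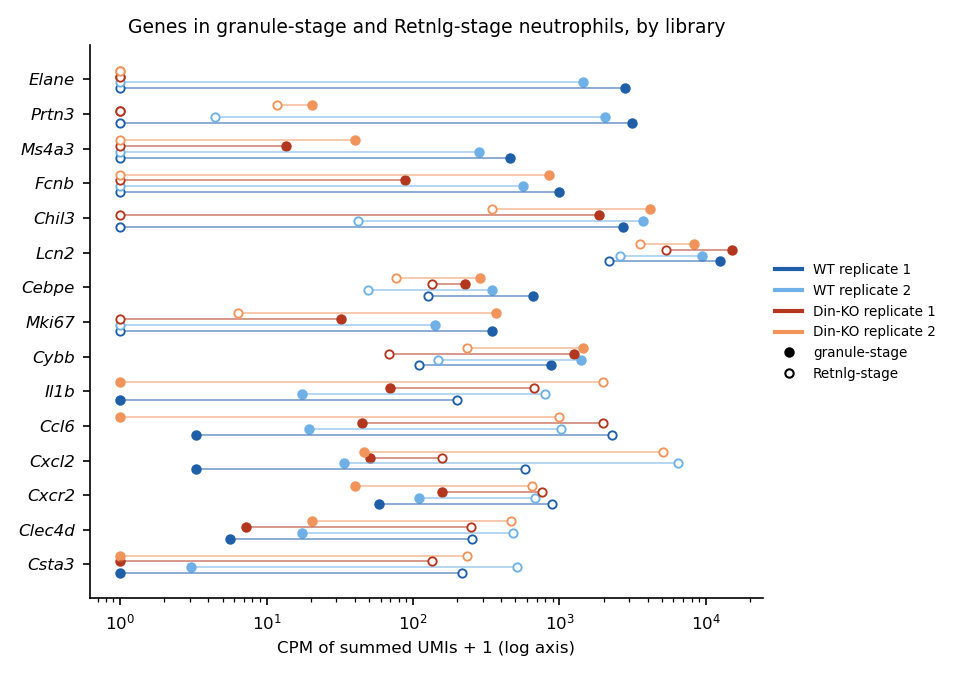
Each row is a gene, the horizontal axis gives CPM of summed UMIs plus 1 on a logarithmic scale, filled points are granule-stage sums, open points are Retnlg-stage sums, and lines join the 2 sums of a library. The upper 9 genes have filled points to the right and the lower 6 open points to the right, but Elane in both Din-KO libraries and Prtn3 in Din-KO replicate 1 were at 0 in both stages.

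Azurophil granule genes, the earliest of the granule program, were higher in granule-stage cells in 5 of the 6 tested, while 1 (Srgn) was lower. The 5 were nearly absent from Retnlg-stage sums and passed the filter through granule-stage sums. Ms4a3, a membrane protein of granulocyte precursors, stood at 458, 282, 12.5 and 39.0 CPM in granule-stage cells and was at 0 in Retnlg-stage cells, at least 53.5-fold higher (edgeR, adjusted p = 0.000293). Elane, encoding neutrophil elastase, stood at 2790 and 1442 CPM in the granule-stage sums of WT but at 0 in both of Din-KO (adjusted p = 0.000169 by edgeR), so its stage difference rested on the WT libraries. Mpo, at 837, 894, 0 and 0 CPM, Ctsg, at 472, 474, 0 and 0 CPM, and Prtn3, at 3144, 2051, 0 and 19.5 CPM, behaved alike. DESeq2 did not call these 4 genes between stages (adjusted p = 0.257 for Elane, 0.341 for Mpo, 0.394 for Ctsg and 0.172 for Prtn3). Srgn, which encodes the proteoglycan that packs granule contents, was the exception at 467, 726, 112 and 45.5 CPM in granule-stage and 1567, 2812, 1610 and 3545 CPM in Retnlg-stage cells (log2 difference -2.89 ± 0.69 (SE), edgeR adjusted p = 0.0111).

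Among specific granule genes outside the rule, 5 of 9 were higher in granule-stage cells (Lcn2, Chil3, Orm1, Anxa1 and Ceacam1), none was lower, and the median log2 difference was 1.22. Chil3, a chitinase-like lectin, was at 2734, 3735, 1874 and 4183 CPM in granule-stage and at 0, 41.3, 0 and 345 CPM in Retnlg-stage cells, a log2 difference of 5.93 ± 0.79 (SE, edgeR adjusted p = 0.000368). Lcn2, an iron-withholding lipocalin, was at 12420, 9374, 15145 and 8353 CPM against 2161, 2586, 5344 and 3545 CPM, a log2 difference of 2.06 ± 0.49 (SE, edgeR adjusted p = 0.0106). Chil3 was thus low or absent in Retnlg-stage sums, while Lcn2 was abundant in both stages and higher in the first in 4 of 4 libraries. Lcn2 was no longer called without WT replicate 1 (log2 difference 1.71, edgeR adjusted p = 0.0737), without WT replicate 2 (2.14, 0.0904) or with at least 1000 genes a cell (2.01, 0.083). Cd177, Hp, Olfm4 and Lyz2 did not pass, with Cd177 at a log2 difference of 1.13 ± 0.41 (SE, edgeR adjusted p = 0.0629).

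Of the gelatinase and secretory granule list, 1 gene was higher (Fcnb), 1 was lower (Adam8) and 6 of 8 were not called, shares close to the 10.9% and 11.4% of all genes tested. Fcnb, which encodes the lectin ficolin B, stood at 990, 558, 87.4 and 844 CPM in granule-stage cells and at 0 in all 4 Retnlg-stage sums, at least 131-fold higher (edgeR adjusted p = 8.11e-05). Mmp9, the gelatinase itself, was at 229, 657, 1205 and 136 CPM in granule-stage and 1225, 1657, 1297 and 1273 CPM in Retnlg-stage cells, lower in the first in 4 of 4 libraries but not past the threshold (log2 difference -1.46 ± 0.52 (SE), edgeR adjusted p = 0.0593).

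Cell cycle genes were higher in granule-stage cells in 14 of 16 tested, with none lower, and their median log2 difference was 3.45. Mki67, a marker of dividing cells, was at 345, 141, 31.2 and 370 CPM in granule-stage cells, and Retnlg-stage cells held 1 UMI of it in all, against 280, a CPM ratio of 131 with a 95% counting interval of 23.3 to 5179 (edgeR adjusted p = 7.97e-05). Top2a, a topoisomerase of dividing cells, was at 421, 123, 81.2 and 344 CPM against 18.0, 3.44, 0 and 5.40 CPM. Hmgb2 and Cks2 did not pass. The 15 largest differences in this direction included Pclaf (at least 40.0-fold), Cdk1 (22.6) and Rrm2 (20.7) of the list, at 0 in all Retnlg-stage sums. Outside the cell cycle list, Hist1h3c (30.3), Nusap1 (27.8), Prc1 (14.9), Cenpf (14.8), Kif11 (14.5) and Fbxo5 (10.7) were at 0 there too. Ube2c of the list and Hist1h2ae outside it had 1 and 2 UMIs there.

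Of the granulopoietic transcription factors, 1 of 9 tested was higher in granule-stage cells (Cebpe), a share near the 10.9% of all genes tested, and 4 were lower (Cebpb, Mxd1, Klf2 and Junb), against 11.4%. Cebpe, the C/EBP of the specific granule program, was at 657, 346, 225 and 286 CPM against 126, 48.1, 134 and 75.5 CPM (log2 difference 2.32 ± 0.40 (SE), edgeR adjusted p = 0.00181), and Cebpb, the family member linked to later and emergency granulopoiesis, was at 127, 335, 287 and 156 CPM against 378, 1386, 1029 and 1462 CPM (-1.89 ± 0.43 (SE), adjusted p = 0.00855). The 2 factors changed in opposite directions in each of the 4 libraries. Cebpb was not called without WT replicate 2 (log2 difference -1.82, edgeR adjusted p = 0.0596) or with at least 1000 genes a cell (-1.48, 0.168). It was not called either with Csf3r alone as the late gene (-1.06, 0.221) or without barcodes holding other-class markers (-1.48, 0.114). Spi1, which encodes PU.1, did not pass (-0.94 ± 0.43 (SE), edgeR adjusted p = 0.127).

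Of the NADPH oxidase genes, whose products make superoxide in the phagosome, the membrane subunit gene Cybb was higher in granule-stage cells, at 877, 1395, 1255 and 1435 CPM against 108, 148, 67.1 and 232 CPM in Retnlg-stage cells (log2 difference 3.39 ± 0.43 (SE), edgeR adjusted p = 0.000285). The stages did not overlap. No other of the 6 genes tested was higher in granule-stage cells.

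The list of mature and circulating neutrophil genes fell in granule-stage relative to Retnlg-stage cells in 17 of 23 members tested, with none higher and a median log2 difference of -2.14. Cxcr2, the receptor for chemokines that draw neutrophils from the marrow, was at 57.8, 108, 156 and 39.0 CPM in granule-stage and 883, 684, 760 and 653 CPM in Retnlg-stage cells (-2.87 ± 0.41 (SE), edgeR adjusted p = 0.000639). The stages did not overlap for it. Fpr2, Wfdc17, G0s2, Csf2rb, Cxcr4 and Stfa1 did not pass, and Cxcr4, the marrow retention receptor, had a log2 difference of -1.43 ± 0.50 (SE, edgeR adjusted p = 0.0554).

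Surface receptors outside the rule were higher in Retnlg-stage cells in 9 of 19 tested (11.4% of all genes tested), among them Cxcr2, Fpr1, C5ar1, Tlr2, Trem1 and Il1r2, and none was higher in granule-stage cells. The chemokine and cytokine list went one way, with 7 of 7 members tested higher in Retnlg-stage cells and a median log2 difference of -4.65. Both lists share genes with the mature list, among them Cxcr2, Fpr1, Trem1, Il1r2, Ccl6 and Il1b, so these counts are not separate results. Ccl6, a CC chemokine, was at 2.31, 18.4, 43.7 and 0 CPM against 2269, 1028, 1968 and 998 CPM (-6.47 ± 0.65 (SE), edgeR adjusted p = 7.97e-05). Il1b, which encodes interleukin-1 beta, was at 0, 16.4, 68.7 and 0 CPM against 198, 794, 671 and 1980 CPM (-5.37 ± 0.78 (SE), edgeR adjusted p = 0.000666). Cxcl2, a CXCR2 ligand, was at 2.31, 32.7, 49.96 and 45.5 CPM against 576, 6443, 157 and 5110 CPM (edgeR adjusted p = 0.0011). In Retnlg-stage cells Cxcl2 was high in the second library of each genotype and lower in the first, a spread not seen for Ccl6.

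Other genes were among the largest differences toward Retnlg-stage cells. Csta3, a stefin, had 1 UMI in granule-stage and 211 in Retnlg-stage cells, where it stood at 216, 516, 134 and 232 CPM (CPM ratio 0.00221, 95% counting interval 5.57e-05 to 0.0125). Clec4d, a C-type lectin receptor, was at 4.63, 16.4, 6.25 and 19.5 CPM against 252, 481, 246 and 464 CPM (edgeR adjusted p = 4.18e-05). The others were Sirpb1b, H2-Q10, Hcar2, Ptgs2, Jaml, Mpzl3, Gm5150, St8sia4, Cyp4f18 and Gm16556, and Csta3, Sirpb1b, Gm5150 and H2-Q10 belong to families whose near-identical copies could share reads.

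Dissociation stress genes moved with stage as well. They were higher in Retnlg-stage cells in 6 of 10 tested (Fos, Fosb, Egr1, Atf3, Zfp36 and Dusp1), and Fos, an immediate-early gene, was at 53.2, 988, 344 and 539 CPM in granule-stage and 702, 2097, 984 and 2423 CPM in Retnlg-stage cells. Their part in the differences of Junb, Cxcl2 and Il1b was not tested. Of the interferon-induced genes 1 of 9 (Slfn1) was higher in Retnlg-stage cells, a share near the 11.4% of all genes tested, of the Ifitm family 2 of 4 (Ifitm1 and Ifitm2), of MHC class I genes 2 of 6 (H2-D1 and H2-T23), and of S100 genes outside the rule 2 of 3. S100a6, a calcium-binding protein, was at 340, 511, 2342 and 637 CPM against 6178, 6196, 7245 and 8137 CPM, so it rose in the late cells while S100a8 and S100a9 stayed abundant in both.

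RNA of other cell types moved with stage too. Erythroid markers summed to 211, 397, 144 and 526 CPM in granule-stage and 1207, 970, 313 and 1209 CPM in Retnlg-stage cells, and epithelium markers to 20.8, 524, 125 and 539 CPM against 90.1, 1341, 134 and 831 CPM, so both were higher in Retnlg-stage cells in 4 of 4 libraries. Mesenchyme markers, at 282, 1307, 219 and 2676 CPM against 2738, 6178, 1386 and 1862 CPM, were higher in 3 of 4, and the matrix genes Col3a1 (edgeR adjusted p = 0.0329) and Postn (0.0425) were themselves called toward Retnlg-stage cells. Macrophage markers were higher in granule-stage cells in 3 of 4 libraries, at 30.1, 626, 3460 and 45.5 CPM against 36.0, 55.0, 89.4 and 21.6 CPM, as were monocyte markers, at 368, 481, 899 and 344 CPM against 288, 306, 403 and 464 CPM. The part of this RNA in the stage differences was not tested beyond leaving out barcodes that held at least 2 markers of 1 other class, which left 526 genes testable and 85 called, and barcodes with over 1% of their UMIs in such markers, which left 2253 testable and 607 called, 530 of them among the 662.

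Din itself was rare in neutrophils. It had 6, 2, 0 and 7 UMIs, or 12.0, 2.54, 0 and 18.0 CPM, and the 0 in Din-KO replicate 1 allows up to 14.0 CPM. Over all filtered barcodes its level was 33.0 and 24.5 CPM in the WT libraries, against 17.3 and 20.9 CPM with the Din-KO label. UMIs near the 3′ end were thus present in both genotypes and do not check the label, since they may lie outside the deleted part. Y-linked genes (4 genes) had 0, 0, 4 and 21 UMIs in neutrophils and 4, 1, 4701 and 1880 UMIs over all filtered barcodes, so sex and genotype cannot be told apart in the comparison of Din-KO with WT. Xist, transcribed from the inactive X chromosome, had 161, 357, 47 and 133 UMIs in neutrophils and was thus present in the Din-KO libraries as well.

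Between genotypes, 4 azurophil granule genes were called. When edgeR compared the sums over all neutrophils of each library, across 4861 genes, 4 genes were lower in Din-KO (0.0823% of those tested) and none was higher (0%), and the 4 were Mpo, Prtn3, Ctsg and Elane. At an unadjusted p under 0.05, 122 genes differed, 81 of them higher in Din-KO (1.67%), and DESeq2 called 15, of which 10 were higher and 5 lower. Without WT replicate 1 edgeR called 16, and without Din-KO replicate 2 it called 83. Fewer neutrophils of a stage and less RNA of a gene per cell cannot be told apart in such sums. In granule-stage cells alone, which include the azurophil-rich cells described below, the 4 stayed called (edgeR adjusted p = 0.0325 for Mpo, Ctsg and Elane and 0.0346 for Prtn3).

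Mpo was at 726 and 555 CPM in the WT libraries and at 0 in both Din-KO libraries, at least 125-fold lower (edgeR adjusted p = 0.0308). Prtn3, encoding proteinase 3, measured 2726 and 1275 CPM in WT but 4.67 and 20.5 CPM in Din-KO (log2 difference -7.34 ± 0.86 (SE), edgeR adjusted p = 0.0308). Ctsg, encoding cathepsin G, was at 409 and 295 CPM against 0 and 0, at least 68.2-fold lower (edgeR adjusted p = 0.0308), and Elane at 2419 and 895 CPM against 0 and 10.3 CPM (-8.22 ± 1.06 (SE), edgeR adjusted p = 0.0431). The WT and Din-KO libraries did not overlap for any of the 4. These genes were named because they were called, so the lack of overlap adds no support to the calls. With at least 1000 genes a cell, Ctsg (edgeR adjusted p = 0.0527) and Elane (log2 difference -8.17, 0.0687) were not called. Nor was Prtn3 with S100a8 and S100a9 at 5% of UMIs or more (-7.28, 0.0857), or Elane with the genes of the rule left out (-8.21, 0.0563). These differences of Prtn3 and Elane were close in size to those over all neutrophils. Ctsg was at 0 in both Din-KO libraries, so its fitted log2 difference (-10.47, against -10.49 over all neutrophils) is not a measured size. Without Din-KO replicate 1, Prtn3 (-6.95) and Elane (-7.68) were no longer called. When 4 of the 7 other genes were required of a cell, neither was called (edgeR adjusted p = 0.491 for both). Their fitted log2 differences were then -6.90 for Prtn3 and -10.64 for Elane, while Mpo and Ctsg did not pass the filter. In that setting the 3 richest cells of WT replicate 1, each with 3 of the 7 genes, were no longer selected. WT replicate 2 kept its own. The 4 passed the filter on low counts through the WT libraries, where they are high. Ms4a3, at 397 and 175 CPM against 9.34 and 15.4 CPM, was not past the threshold in this fit (edgeR adjusted p = 0.156). Neither was Srgn, at 622 and 1541 CPM against 579 and 1773 CPM. With replicate number as a block, edgeR called 5 genes lower in Din-KO, these 4 azurophil genes included. It also called 5 lower, again with the 4, when other-class markers were at most 1% of UMIs.

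These UMIs came from very few cells. Mpo, Elane, Prtn3 and Ctsg together had 3131, 2378, 1 and 12 UMIs, and at least 5 of them were found in 7 of 50, 4 of 104, 0 of 33 and 1 of 57 neutrophils. The 3 richest cells held 95.7% of them in WT replicate 1 and 99.2% in WT replicate 2. Each WT library had 3 cells with at least 200 such UMIs (285 to 1778), and outside those 6 cells the UMIs numbered 136, 19, 1 and 12, or 334, 29.3, 4.67 and 30.8 CPM. WT replicate 2 without its 3 cells stood at the level of Din-KO replicate 2, and WT replicate 1 without its own stayed above both Din-KO libraries. The 0 of 33 in Din-KO replicate 1 allows a share of up to 9.09% by a limit of 3 cells, or 10.4% by the Wilson interval.

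The 6 azurophil-rich cells also differed from the other 82 granule-stage cells in other genes, given as values only. They held 0 to 3 UMIs of Ltf, with a median of 1.5, against a median of 72.5, and S100a8 and S100a9 took 6.29% to 20.8% of their UMIs, with a median of 12.5% against 32.6%. Every one held Mki67, at 8 to 26 UMIs, whereas 25 of the other 82 held any, with median depths of 35038 and 10320.5 UMIs. Camp ranged from 25 to 2061 UMIs in them. In the plot of azurophil UMIs against Ltf, cells with many UMIs of the first had almost none of the second.

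**Figure D4:**
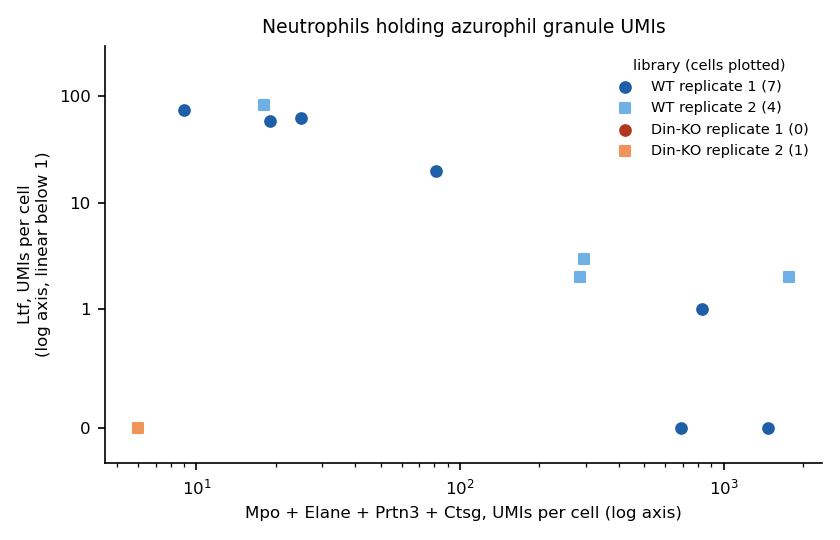
Each point is a neutrophil with at least 5 UMIs of Mpo, Elane, Prtn3 and Ctsg, with those UMIs on the horizontal axis (logarithmic) and its Ltf UMIs on the vertical axis (logarithmic above 1 and linear below), coloured by library. The 6 cells with 285 to 1778 azurophil UMIs have 0 to 3 Ltf UMIs, and all 6 are from WT libraries.

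Barcodes with azurophil UMIs also lay outside the rule in all 4 libraries. Of all filtered barcodes, 12 of 4535, 16 of 1816, 2 of 5010 and 6 of 1482 had at least 5 UMIs of the 4 genes, and 5, 12, 2 and 5 of these were not selected as neutrophils. The richest of them held 788 such UMIs in WT replicate 1 and 1698 in WT replicate 2. In Din-KO replicate 1 the richest had 976 with 1.22% of its UMIs from S100a8 and S100a9 and none of the 7 other genes of the rule, and the richest of the other Din-KO library had 147. These barcodes were in none of the sums compared above.

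No other maturation gene was called between genotypes by edgeR over all neutrophils without a replicate block, the fit used for the lists below. No member of the specific granule, gelatinase granule, mature neutrophil, NADPH oxidase, transcription factor, cell cycle, chemokine, surface receptor, dissociation stress, S100 or Ifitm lists was called in either direction, and none of the 4 Y-linked genes had enough UMIs to be tested. The 23 mature genes tested had a positive log2 difference in 20 (48.4% of all genes tested were positive) and a median of 0.44, and in 7 of them each Din-KO library exceeded each WT library (true of 13.9% of all genes tested). The 20 cell cycle genes tested were positive in 2, with a median of -0.86, and the 9 specific granule genes in 3, with a median of -0.14. The surface receptor list, which shares genes with the mature list, was positive in 19 of 19 tested, with a median of 0.52, and each Din-KO library exceeded each WT library in 7. The S100 genes outside the rule were positive in 4 of 4 (2 of them without overlap), the Ifitm genes in 4 of 4 (3 without overlap), the chemokines and cytokines in 7 of 8, the transcription factors in 9 of 11, the dissociation stress genes in 8 of 11, the gelatinase granule genes in 6 of 8 and the oxidase genes in 4 of 6. Din-KO replicate 2, with its low granule-stage share, was lowest for Camp (44004, 17560, 20346 and 11875 CPM), Ngp (30960, 15810, 26640 and 10469 CPM) and Ltf (4413, 3329, 4959 and 1581 CPM) and highest for Csf3r (86.2, 348, 247 and 536 CPM), which are genes of the rule and are given with no test.

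Interferon-induced genes were higher in Din-KO in all 14 members that could be tested, of 30 in the list, but edgeR called none. DESeq2 called 4 of the 14, against 15 of all 4861 genes tested. Without the filter on low counts edgeR called 10 of the 30, against 92 of all 14986 genes tested. With RLE scaling, with replicate number as a block or in either stage alone, edgeR called no member. In each of the 14 the lower Din-KO library exceeded the higher WT library (true of 13.9% of all genes tested), 11 had an unadjusted p under 0.05 by edgeR (1.67% of all genes tested in this direction), and the median log2 difference was 2.66. The list was chosen with earlier results of these data known, and several of the 14 passed the filter through the Din-KO libraries, such as Ifit1 with 2 UMIs in WT and 14 in Din-KO or Oasl1 with 3 and 22, so these counts are partly fixed by the filter. Without it, all 30 were positive with a median of 2.88, against -0.0732 over all genes tested. Isg15, a ubiquitin-like interferon product, measured 2.01 and 7.62 CPM in WT but 159 and 53.9 CPM in Din-KO (4.35 ± 0.85 (SE), edgeR adjusted p = 0.433). Irf7, a transcription factor of the response, was at 6.02, 12.7, 159 and 43.6 CPM, and Slfn4, a Schlafen gene of myeloid cells, at 62.2, 142, 336 and 149 CPM. Din-KO replicate 1 was the higher of the Din-KO libraries for most of them, while for Slfn4 Din-KO replicate 2 stood just above WT replicate 2. Without Din-KO replicate 1 the median log2 difference was 1.54, with 11 of 12 genes tested above 0. It was 0.81 in Retnlg-stage cells (6 genes), 1.31 in granule-stage cells (4 genes) and 1.54 with other-class markers at most 1% of UMIs (9 genes).

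**Figure D5:**
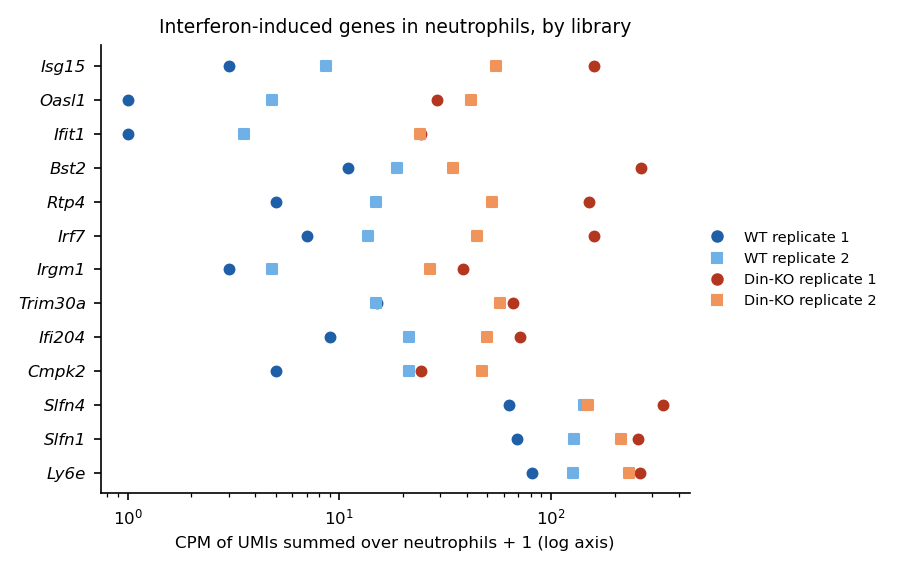
Each row is 1 of 13 of the interferon-induced genes tested, the horizontal axis gives CPM of UMIs summed over all neutrophils of a library plus 1 on a logarithmic scale, and each point is a library. Both Din-KO points lie to the right of both WT points in every row, with Din-KO replicate 2 close to WT replicate 2 for Slfn4.

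Summed over the 30 interferon-induced genes, neutrophils held 331, 598, 2736 and 1170 CPM. The Din-KO libraries were also the higher in Retnlg-stage cells, with 919, 736, 2057 and 1640 CPM, while in granule-stage cells Din-KO replicate 2, with 435 CPM, lay between the WT libraries at 241 and 509 CPM and Din-KO replicate 1 stood at 2873 CPM. A single granule-stage barcode of Din-KO replicate 1, the one that held 96.3% of that library's macrophage marker UMIs, also held 49.7% of its interferon UMIs, and without it the sum was 1703 CPM. With all barcodes removed that held over 1% of their UMIs in markers of other cell classes, the sums were 331, 665, 1703 and 1237 CPM, so the Din-KO libraries stayed the higher ones. The same 30 genes stood at 1580, 852, 4445 and 1778 CPM in monocyte or macrophage barcodes, 699, 361, 1623 and 750 CPM in B-lineage barcodes and 209, 146, 849 and 568 CPM in collagen barcodes. The Din-KO libraries were thus the higher in each of these classes as well, Din-KO replicate 1 by the most.

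Other genes were also higher in Din-KO without passing the threshold. MHC class I genes had a positive log2 difference in 8 of 8 tested (48.4% of all genes tested), with a median of 1.30, and each Din-KO library exceeded each WT library in 6 (13.9% of all genes tested). H2-K1, a class I heavy chain, was at 46.1, 116, 738 and 262 CPM, and B2m, its light chain, at 249, 349, 1186 and 631 CPM, and neither was called. The 5 genes with the smallest p among those higher in Din-KO were Ifi27l2a, Gas6, Isg15, Cdkn1a and Sostdc1. None passed the threshold in the edgeR fit without a replicate block. With replicate number as a block edgeR called 2 genes higher in Din-KO, and DESeq2 without it called 10. Gas6, which encodes a ligand of TAM receptors, was at 8.02, 24.1, 88.7 and 326 CPM and Sostdc1, a secreted BMP and Wnt antagonist, at 0, 8.89, 46.7 and 79.6 CPM, so Din-KO replicate 2 was the higher of the Din-KO libraries for both, unlike most of the interferon genes. Ifi27l2a, an interferon-induced gene outside the list, was at 72.2, 86.3, 2293 and 916 CPM (4.40 ± 0.71 (SE), edgeR adjusted p = 0.156), and Cdkn1a, which encodes the cell cycle inhibitor p21, at 20.1, 39.4, 215 and 154 CPM (2.64 ± 0.55 (SE), edgeR adjusted p = 0.602).

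Whether the stage difference itself differed between genotypes was tested as an interaction in the same sums, and 12 of 2968 genes (0.404%) were called, all with a higher granule-minus-Retnlg log2 difference in Din-KO. They included the extracellular matrix genes Postn and Col3a1 and the growth factor binding genes Igfbp3 and Igfbp5, and none was in the lists of granule, mature, receptor or oxidase genes. Col3a1 was at 16.2, 16.4, 31.2 and 883 CPM in granule-stage and 432, 1877, 291 and 707 CPM in Retnlg-stage cells, so the granule-stage sum of Din-KO replicate 2, made of 7 cells, stood apart from the other 3. Only 4 of the 12 (Igf2, Lgals1, Col3a1 and Igfbp5) could still be tested once barcodes with over 1% of their UMIs in markers of other cell classes were removed, and none of the 2253 genes then tested was called (19 at an unadjusted p under 0.05, against 116 before, and 3 called by DESeq2 before). Without Din-KO replicate 2, 11 genes were called, but only Meg3 and Lgals1 of the 12. None was called without WT replicate 2, while 80 were without Din-KO replicate 1.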

How the data were processed

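The authors demultiplexed reads with bcl2fastq, aligned them and counted UMIs with Cell Ranger (6.0.2 in the file headers; mm10/GRCm38), and deposited raw UMI counts of 32285 gene identifiers per barcode, without normalization; Seurat also stands in their processing notes. Proximal incisor tissue had been digested and freed of dead cells before capture. The study kept barcodes with at least 1000 genes; here the limit was 500, and 83 of the 244 lay between.

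The neutrophils, gene lists and tests were chosen with earlier results of these data known. Counts were summed per library, or per library and stage, and tested in R 4.3.3 with edgeR 4.0.16 (TMM scaling, filterByExpr, a quasi-likelihood F test and Benjamini-Hochberg adjustment at 0.05), with library as a term between stages and no covariate between genotypes. Tests on simulated data preceded use. Shares used exact permutation over libraries (scipy 1.17.1). DESeq2 1.42.0, other limits, other scalings and each library left out were alternatives. Genes named were those of the selection rule and the lists, the 15 largest called differences in each stage direction (mean of at least 50 CPM in the higher stage, same direction in 4 libraries), called genes between genotypes and in the interaction, the 5 smallest p in each direction between genotypes, Din and the sex genes. No doublet caller was run and free RNA was not removed; alternatives without barcodes holding markers of other classes took their place. With 2 libraries of each genotype and 33 to 104 neutrophils in each, precision between genotypes was low. Some single-gene results are not reported here.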

Additional observations from a re-analysis of the deposited data

Results flagged for a closer look

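The stage difference differed between genotypes in 12 genes by the edgeR interaction test. The log2 difference of the stage differences, Din-KO minus WT, was 7.76 for Postn, 7.47 for Meg3, 6.07 for Nts, 5.94 for Ptprd, 5.86 for Igf2, 5.56 for Sfrp2, 5.45 for Lgals1, 5.38 for Igfbp3, 4.77 for Col3a1, 4.60 for Csrp2, 4.52 for Igfbp5 and 4.52 for Cald1. The granule-stage sum of Din-KO replicate 2, made of 7 cells, was at 721 CPM for Sfrp2 and 740 CPM for Igfbp3, against 0 to 12.5 and 6.25 to 10.2 CPM in the other granule-stage sums, and 1 of those 7 barcodes held 125 UMIs of Col3a1. Postn stood at 108 and 430 CPM in the Retnlg-stage sums of WT and at 0 and 43.2 CPM in those of Din-KO. Removing barcodes with over 1% of their UMIs in markers of other cell classes left 4 of the 12 testable (Igf2, Lgals1, Col3a1 and Igfbp5), and none of those was called.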

How the results depend on the processing

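Removing barcodes by markers of other classes at over 1% of UMIs, and DESeq2 or a left-out library for the interaction, were chosen after seeing the data. Genes called between genotypes numbered 4 (all lower), and 15 with DESeq2 (10 higher, 5 lower), 92 without the filter on low counts (68 higher, 24 lower), 2 at 1000 genes or more, 0 with 4 of the 7 other genes (75 at an unadjusted p under 0.05), 0 in Retnlg-stage cells (31) and 0 of 738 tested without barcodes holding other-class markers (at least 2 of 1 class) (16). Leaving out a library gave 5 to 83 (16 without WT replicate 1, 83 without Din-KO replicate 2), each including Mpo and Ctsg, while Prtn3 and Elane had an adjusted p of 0.0651 without Din-KO replicate 1. Stage calls numbered 662, and 128 at 1000 genes or more, 405 with 4 of the 7 other genes, 331 with Csf3r alone as the late gene, 131 of 362 tested after thinning and 85 of 526 tested without barcodes holding other-class markers (607 of 2253 with those markers at most 1%), and 160 to 789 without a library (160 without WT replicate 1, 206 without WT replicate 2). Over 87 stage genes, under the alternatives where they could be tested, 1083 calls were kept, 170 were lost and none reversed. Interaction calls numbered 12, and 3 with DESeq2, 0 with fractions under 0.2 against over 0.8, 0 with other-class markers at most 1%, and 0 to 80 without a library (2 without WT replicate 1, 0 without WT replicate 2, 80 without Din-KO replicate 1, and 11 without Din-KO replicate 2, 2 of them among the 12).

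The granule-stage share difference of -13.9 points ranged from -35.9 to 8.02 without a library, reversed without Din-KO replicate 2. The neutrophil share difference of -1.16 points ranged from -3.47 to 1.15, reversed without WT replicate 2 (1.15) or Din-KO replicate 1 (0.431), and was 0.0539 without barcodes holding other-class markers. The interferon median of 2.66 was 0.81 in Retnlg-stage cells (6 genes), 1.31 in granule-stage cells (4 genes), 1.65 with 4 of the 7 other genes, 1.54 with other-class markers at most 1% and 1.48 without barcodes holding other-class markers (2 genes), and 1.54 to 3.66 without a library. Reversed genes were Nts (-2.44 without WT replicate 2, up to 7.04), Igfbp3 (-0.082 without Din-KO replicate 2, up to 6.18) and Igfbp5 with fractions under 0.2 against over 0.8 (-1.11). The cause of these changes was not tested.

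Replicate numbers were shared by the genotypes, but only 2 pairs exist, and their deviations, correlated at 0.133 over 4861 genes, do not decide whether the numbers pair the libraries. The second library of each genotype was smaller (3257 and 3674 deposited barcodes against 6613 and 6958). With the replicate block, 7 genes were called (2 higher, 5 lower, 4 shared), the interferon median was 2.38 and the shares differed by -13.9 and -1.16 points. Sums of 7 to 62 cells, and genes of a few UMIs, limit every comparison here.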

Other observations

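The 18 neutrophils with fewer than 5 UMIs of the stage genes were spread over the libraries as 4, 5, 5 and 4 cells, with median depths of 1953, 1427, 1861 and 13026.5 UMIs. They met the rule through S100a8 and S100a9 and at least 2 of the other genes but could not be placed on the granule fraction.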
